A study of Mus musculus with 10 samples.

Results

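Heat shock proteins are molecular chaperones, which bind unfolded or newly made proteins and keep them from clumping, and cochaperones are the partners that steer them. The 10 genes described here were found by name among the 20270 genes of the deposited table: Hspa1a and Hspa1b (inducible HSP70), Hspa8 (constitutive HSP70), Hsph1 (HSP110), Dnajb1 (an HSP40), Hsp90aa1 and Hsp90ab1 (HSP90), Hspb1 (a small heat shock protein), Hspd1 (HSP60) and Hspe1 (HSP10). All 10 were found. Of these, 9 were among the 15143 genes that passed the filter on low values, a value above 0 in at least 2 libraries on the deposited log2 scale of CPM (reads of a gene relative to all reads of its library), and Hspb1 did not pass.

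The 10 RNA sequencing libraries were made from hematopoietic stem cells (HSCs), from which all blood cells descend, purified by flow cytometry from C57BL/6 mice that had been transplanted with lineage-depleted (Lin-) marrow cells. The donor marrow was Id1-/- (KO-labelled) or Id1+/+ (WT-labelled), and each genotype was labelled normal (3 libraries, A to C) or stressed (2 libraries, A and B). The transplant is common to the 4 groups. What set stressed apart from normal is not given in the sources used here, nor are the age of the mice and whether a library stands for 1 animal or a pool, so that p-values measure only the spread among these libraries. The sample labels give 4 weeks after transplantation and the series design gives 6 weeks.

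In the classical heat shock response, unfolded proteins occupy chaperones, the transcription factor HSF1 is released, and it binds heat shock elements upstream of genes such as Hspa1a, Dnajb1 and Hsph1. HSP70 works in a cycle: a J-domain protein such as DNAJB1 delivers the client and speeds ATP hydrolysis, and an exchange factor such as HSPH1 resets the chaperone. HSP90 receives clients from HSP70, many of them kinases and hormone receptors, and in blood stem cells, which make protein slowly, the folding capacity of the cell has been a subject of study.

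Estimated depth lay between 25700000 and 33000000 reads per library, and markers of HSCs were measured in every group (10 of 10 genes, summed level 3850 to 5310 CPM, none at 0 throughout a group). Id1, an inhibitor of E protein transcription factors, stood at 8.44 to 13.2 CPM in the KO-labelled libraries and at 1.28 to 4.39 CPM in the WT-labelled libraries. The transcript as a whole was thus not lost from the KO-labelled libraries, and all directions below follow the labels. The first principal component (19.0% of the variance) split the stressed libraries (44.9 to 62.7) from the normal ones (-44.3 to -30.0). On the second (13.1%), WT-labelled stressed libraries A and B scored 83.0 and 20.3 and the KO-labelled pair -47.2 and -60.8. The normal libraries lay there between -13.3 and 8.9. KO-labelled normal library A stood apart on the third (12.5%), above the range of -31.3 to 12.9 of the others. Results are therefore also given without a single library where that changes them. In bulk RNA, fewer cells of a type and less RNA per cell cannot be told apart.

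The stretches of DNA just upstream of these genes are shown first, and those of Hspa1a and Hspa1b are near-identical. Promoter windows of RefSeq (build GRCm38.p6, 300 bases around each annotated start, most of them upstream) were found for 7 of the 10 genes, and not for Hspa8, Hsp90aa1 and Hsp90ab1. Each was searched for pairs of heat shock units, GAANNTTC and TTCNNGAA, which read the same on both strands and can overlap, for elements of 3 alternating GAA and TTC units with 2 bases between them, and for CCAAT on either strand. Below are the 150 bases that end just before the start, 5′ to 3′, with the heat shock pairs in capitals, for Hspa1a (chr17:34972157-34972306, minus strand), Hspa1b (chr17:34959239-34959388, minus strand), Hspe1 (chr1:55087998-55088147, plus strand), Hsph1 (chr5:149636337-149636486, minus strand), Hspb1 (chr5:135887769-135887918, plus strand) and Dnajb1 (chr8:83608025-83608174, plus strand).
Hspa1a: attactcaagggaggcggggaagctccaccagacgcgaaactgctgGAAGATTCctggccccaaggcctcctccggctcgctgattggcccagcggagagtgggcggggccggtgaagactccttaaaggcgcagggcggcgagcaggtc
Hspa1b: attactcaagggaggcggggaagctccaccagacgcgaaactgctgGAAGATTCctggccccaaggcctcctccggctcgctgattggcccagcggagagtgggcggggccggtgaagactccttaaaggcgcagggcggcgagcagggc
Hspe1: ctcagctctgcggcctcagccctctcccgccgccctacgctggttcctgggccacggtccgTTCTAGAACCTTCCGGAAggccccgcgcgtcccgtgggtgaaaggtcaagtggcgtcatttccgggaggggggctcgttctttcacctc
Hsph1: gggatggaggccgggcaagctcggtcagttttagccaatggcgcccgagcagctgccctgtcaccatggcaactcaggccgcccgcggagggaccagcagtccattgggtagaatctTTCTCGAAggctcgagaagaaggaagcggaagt
Hspb1: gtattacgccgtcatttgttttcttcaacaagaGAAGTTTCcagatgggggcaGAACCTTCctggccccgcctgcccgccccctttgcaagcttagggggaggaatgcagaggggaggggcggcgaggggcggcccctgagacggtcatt
Dnajb1: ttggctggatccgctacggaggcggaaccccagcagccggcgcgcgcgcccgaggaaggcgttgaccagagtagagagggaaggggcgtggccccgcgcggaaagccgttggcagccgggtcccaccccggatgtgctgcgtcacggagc

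Hspa1a and Hspa1b carried the same pair, at positions -104 to -97 from the start, and the same CCAAT box at -67 to -63. Their stretches differed at 1 of 150 bases, and their whole windows were identical at 296 of 300 positions (98.7%). Hspe1 held overlapping pairs from -89 to -72, which make 2 overlapping elements of 3 units. Hspd1 lies head to head with Hspe1. The Hspd1 window at its outermost start, chr1:55088243, held no heat shock pair and shares 4 bases with that of Hspe1. A second Hspd1 window, for a start inside the gene, shares 285 bases with that of Hspe1. It held the same element at -144 to -127 from that inner start, downstream of the outermost one. Hsph1 had a pair at -33 to -26 and, downstream of its start at 37 to 49, an element of 3 units, TTCTGGAAAGTTC (minus strand, chr5:149636288-149636300). Hspb1 had pairs at -117 to -110 and at -97 to -90, and Dnajb1 had none in either of its windows, with CCAAT boxes at -151 to -147 and at 12 to 16 in the one shown. Of all 32851 windows, 7.86% held GAANNTTC, 8.52% held TTCNNGAA, 15.1% held either, 0.603% held an element of 3 units and 37.4% held CCAAT. These matches describe letters in a window, not occupied sites.

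**Figure D1:**
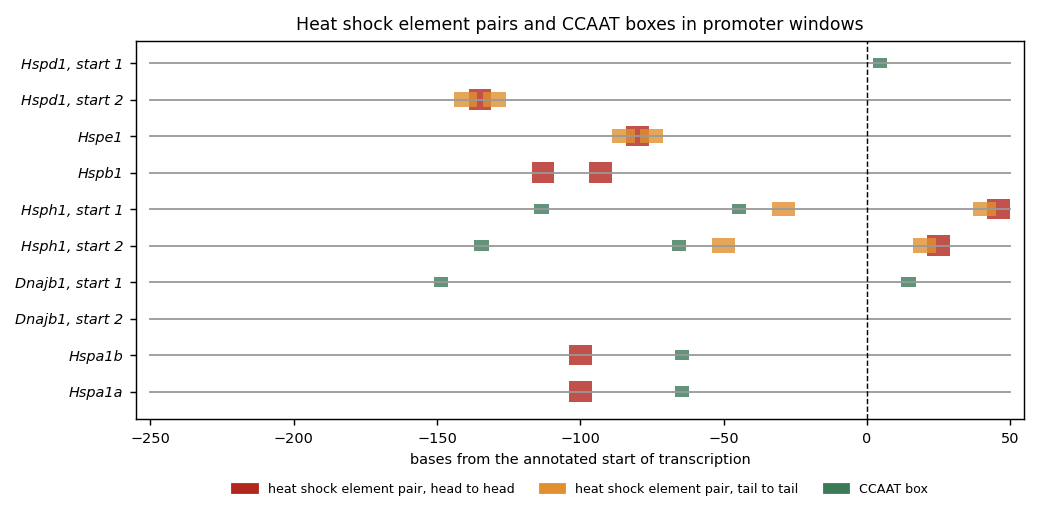
Positions of heat shock pairs and CCAAT boxes (coloured boxes) in the promoter windows of the 7 members with a window, in bases from the annotated start (dashed line), 1 row per window. Hspa1a and Hspa1b share 1 pair at -104 and 1 CCAAT box at -67, and the windows of Dnajb1 hold no pair.

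Levels were compared between genes per length, as CPM per 1000 exonic bases (CPM per kb). In WT-labelled normal HSCs the order was Hsp90ab1 (550), Hspa8 (496), Hsp90aa1 (213), Hspd1 (168), Hspe1 (60.0), Dnajb1 (36.4), Hsph1 (18.2), Hspa1b (7.79), Hspa1a (1.67) and Hspb1 (0.202). The constitutive forms Hsp90ab1 and Hspa8 thus led, followed by the inducible Hsp90aa1, and the inducible HSP70 genes and Hspb1 came last. The genes differ in how much of their sequence other genes share. Of the 50-base windows in their transcripts, 0% (Hsph1), 0.412% (Dnajb1), 3.44% (Hsp90ab1), 22.8% (Hspe1) and 39.4% (Hspa8) occur in another gene. The shares were 42.1% for Hspd1, 47.5% for Hsp90aa1, 50.1% for Hspb1, 62.3% for Hspa1b and 66.3% for Hspa1a. How reads with several matches were counted is not given, and their part in the order was not tested. Libraries of neighbouring genes in this order did not overlap in either normal group. In KO-labelled stressed HSCs Hsph1 (12.4 to 13.9 CPM per kb) and Hspa1b (10.3 to 13.7) overlapped, and in WT-labelled stressed HSCs Hspb1 (0.218 to 0.802) and Hspa1a (0.327 to 0.398) overlapped, with Hspb1 in the higher place. Together the 10 genes took 0.540% to 0.603% of all CPM in a library. The share was highest in the KO-labelled normal libraries (0.603%, 0.574% and 0.593%) and lay at 0.540%, 0.542% and 0.549% in the WT-labelled normal libraries, with stressed libraries between 0.548% and 0.569%.

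**Figure D2:**
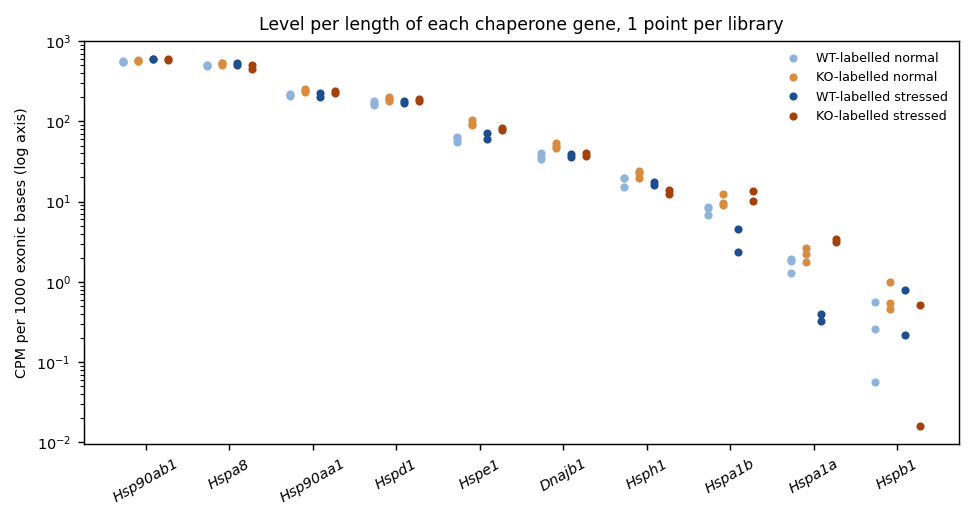
Level of each chaperone gene in CPM per 1000 exonic bases (log axis), 1 point per library, coloured by group. Hsp90ab1 and Hspa8 lie between 445 and 597 in every library, and Hspa1a drops to 0.327 and 0.398 in the WT-labelled stressed libraries.

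Among the 9 tested members, the inducible HSP70 genes differed most between groups. Hspa1a (ENSMUSG00000091971.3, chr17:34969190-34972156, minus strand) and Hspa1b (ENSMUSG00000090877.3, chr17:34956436-34959238, minus strand) are single-exon neighbours that encode nearly the same stress-inducible chaperone. By group mean both were lowest in WT-labelled stressed HSCs and highest in KO-labelled stressed HSCs, with the normal groups between. Hspa1a stood at 5.23, 6.60 and 7.93 CPM in KO-labelled normal libraries A to C and at 3.86, 5.42 and 5.77 CPM in their WT-labelled counterparts. Under stress it was at 10.3 and 9.29 CPM (about 310 and 240 reads) in KO-labelled libraries A and B, but at 0.970 and 1.18 CPM (about 27 and 34 reads) in the WT-labelled pair. The 2 normal groups overlapped, both KO-labelled stressed libraries lay above all others, and both WT-labelled stressed libraries lay below all others.

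Among normal libraries A to C, Hspa1b stood at 26.8, 35.4 and 25.2 CPM with the KO label and at 23.3, 18.9 and 23.8 CPM with the WT label. In stressed HSCs it stood at 28.8 and 38.4 CPM in the KO-labelled and at 12.9 and 6.70 CPM in the WT-labelled libraries. The WT-labelled stressed libraries were again the lowest of the 10, while the KO-labelled stressed libraries overlapped with the KO-labelled normal ones.

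In stressed HSCs, the mean of Hspa1a was 3.29 ± 0.11 log2 CPM (SD, n = 2) for the KO label and 0.10 ± 0.20 for the WT label (SD, n = 2). The KO-labelled cells were higher by 3.19 on the log2 scale, 9.15-fold (SE 0.35, 95% interval 2.42 to 3.97, limma adjusted p = 0.0037). For Hspa1b the means were 5.06 ± 0.29 and 3.22 ± 0.67 log2 CPM (SD, n = 2 each), a difference of 1.84 or 3.58-fold (SE 0.30, limma adjusted p = 0.049). These were the members called in this contrast, 2 of 9 tested, both higher in KO-labelled cells, where 0.145% of all genes tested were called (22 genes, 13 higher). The Hspa1a difference stayed between 3.05 and 3.33 without any single library (limma adjusted p from 0.0056 to 0.034), and with only the 4 stressed libraries fitted it was not called (adjusted p = 0.47). The Hspa1b call was lost without any single library except WT-labelled stressed A, with a difference of 1.37 without WT-labelled stressed B and 2.31 without WT-labelled stressed A (limma adjusted p from 0.013 to 0.23 over the 10 omissions).

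Between conditions, in WT-labelled HSCs, Hspa1a fell by 2.21 on the log2 scale (SE 0.32, limma adjusted p = 0.0037), 4.62-fold, and Hspa1b fell by 1.23 (SE 0.27, limma adjusted p = 0.033), 2.35-fold. These 2 of 9 members were called lower in stressed cells, where 3.30% of all genes tested were called (500 genes, 265 lower). This contrast uses the same WT-labelled stressed libraries as the one between genotypes, so the 2 do not stand apart from each other. The Hspa1a change lay between -2.39 and -2.07 without any single library and passed each time, and the Hspa1b change was -0.76 (limma adjusted p = 0.20) without WT-labelled stressed B and -1.70 (adjusted p = 0.0099) without WT-labelled stressed A. The Hspa1b call was also lost without any 1 of the WT-labelled normal libraries (limma adjusted p from 0.06 to 0.11). Blood lineage markers moved with the condition as well: 4 of 4 megakaryocyte markers summed to 582 to 631 CPM in WT-labelled normal and 972 to 980 CPM in WT-labelled stressed libraries, and 7 of 7 erythroid markers to 195 to 228 and 108 to 120 CPM, with none at 0 throughout a group. Their part in the HSP70 change was not tested.

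With stress in KO-labelled HSCs, Hspa1a differed by 0.59 (SE 0.32, limma adjusted p = 0.37) and Hspa1b by 0.21 (SE 0.27, adjusted p = 0.76). Between genotypes in normal HSCs the differences were 0.39 for Hspa1a (SE 0.29, limma adjusted p = 0.60) and 0.40 for Hspa1b (SE 0.24, adjusted p = 0.52). None of these 4 passed. The difference between the 2 stress changes, the interaction, was 2.80 for Hspa1a (SE 0.45, 95% interval 1.80 to 3.80, limma adjusted p = 0.075) and 1.44 for Hspa1b (SE 0.38, adjusted p = 0.27). Neither passed the threshold. No member was called in the interaction, where 0.0198% of all genes tested were (3 genes, 1386 at an unadjusted p under 0.05).

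**Figure D3:**
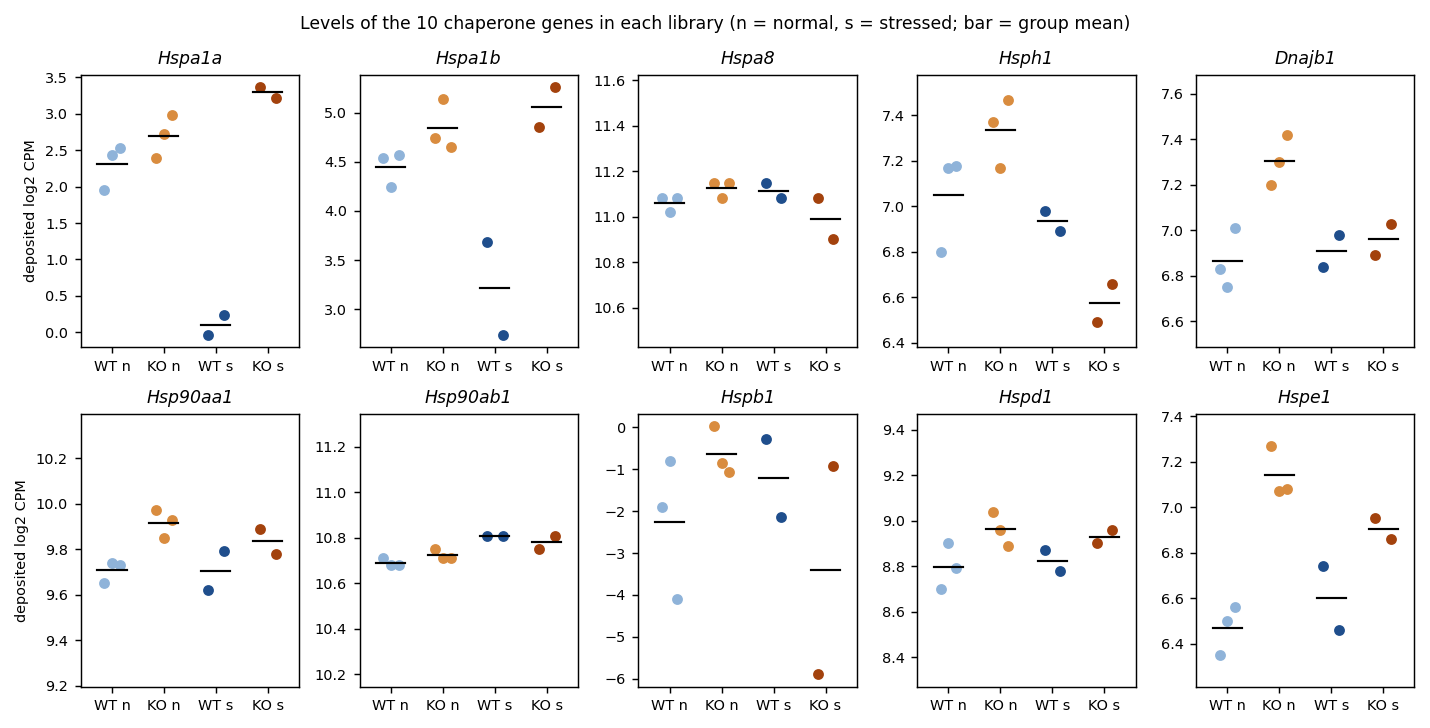
Deposited log2 CPM of each of the 10 chaperone genes, 1 point per library, with a bar at the group mean (WT n and KO n, normal, 3 libraries each; WT s and KO s, stressed, 2 each); the vertical axis differs between panels and does not start at 0. Hspa1a lies near 0 in both WT-labelled stressed libraries (-0.04 and 0.24) and above 3 in both KO-labelled stressed libraries (3.37 and 3.22).

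The split of reads between the 2 copies is uncertain. Their coding sequences, 1926 bases in Hspa1a and 1929 in Hspa1b, were identical at 1918 aligned bases with 8 mismatches and 3 gap positions (99.6% identity of aligned bases), and encode 641 and 642 residues. Of all windows of 50 bases in the annotated transcripts, 66.3% of those of Hspa1a and 62.3% of those of Hspa1b occur in another gene, mostly each other. In the coding part 82.3% and 82.2% were shared, and in the 3′ UTR (810 and 643 bases) 0%. Summed over both copies, the level was 32.0, 41.9 and 33.1 CPM in KO-labelled normal, 27.1, 24.3 and 29.5 CPM in WT-labelled normal, 39.1 and 47.7 CPM in KO-labelled stressed, and 13.8 and 7.88 CPM in WT-labelled stressed libraries. Only the KO-labelled normal and stressed libraries overlapped. Under stress the sum was 4.13-fold higher with the KO label than with the WT label (log2 difference 2.05, SE 0.25, limma adjusted p = 0.0084) and fell by 1.36 with stress in WT-labelled HSCs (SE 0.23, limma adjusted p = 0.009). The interaction of the sum was 1.65 (SE 0.33, limma adjusted p = 0.16). The ratio of Hspa1b to Hspa1a was 3.18 to 6.03 in normal libraries, 2.79 and 4.13 in KO-labelled stressed, and 13.3 and 5.68 in WT-labelled stressed libraries.

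Markers of other cells moved with the contrast in which Hspa1a and Hspa1b differed. The summed level of 8 plasma and B cell markers in the table (of 10 listed) was 376 to 403 CPM in KO-labelled stressed, 220 to 244 CPM in WT-labelled stressed, and 244 to 280 CPM in normal libraries. Igkc, an immunoglobulin light chain gene, stood at 130 and 136 CPM in KO-labelled stressed libraries, and at 0.416 CPM and at 0 reads in WT-labelled stressed libraries A and B. The part of these cells in the HSP70 difference was not tested.

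Hsph1 (ENSMUSG00000029657.15, chr5:149614287-149636376, minus strand) encodes HSP110, the exchange factor that resets HSP70, and was lowest in KO-labelled stressed HSCs. It stood at 7.37, 7.17 and 7.47 log2 CPM in KO-labelled normal, 6.80, 7.17 and 7.18 in WT-labelled normal, 6.49 and 6.66 in KO-labelled stressed, and 6.98 and 6.89 in WT-labelled stressed libraries. The 2 KO-labelled stressed libraries lay below the other 8. Within the KO-labelled HSCs it fell by 0.76 with stress, 1.69-fold (SE 0.13, 95% interval -1.04 to -0.47, limma adjusted p = 0.0071), the opposite sign to the Hspa1a difference of 0.59 in the same cells. It was the 1 member of 9 called there, where 4.50% of all genes tested were called (682 genes, 345 lower). Without KO-labelled stressed library A, Hsph1 was not called (-0.67, limma adjusted p = 0.071) and Hspa8 was (-0.22, adjusted p = 0.027, against -0.14 and 0.15 with all libraries). In WT-labelled HSCs the stress difference of Hsph1 was -0.11 (SE 0.13, limma adjusted p = 0.71), and the interaction was -0.64 (SE 0.18, adjusted p = 0.31). No window of 50 bases in its transcripts occurs in another gene. Lineage markers moved in the KO-labelled contrast too, with sums in normal and stressed libraries of 544 to 589 and 1030 to 1060 CPM for megakaryocyte, 210 to 222 and 155 to 169 CPM for erythroid, and 252 to 280 and 376 to 403 CPM for plasma and B cell genes. The erythroid genes did not move together. Car1, the only 1 of them called (-0.79, limma adjusted p = 0.0012), stood at 138 to 153 CPM in normal and 80.7 to 86.6 CPM in stressed libraries. Epor went the other way, from 29.8 to 38.8 CPM in normal to 43.5 and 50.7 CPM in stressed libraries. The part of these lineage markers in the Hsph1 fall was not tested.

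Dnajb1 (ENSMUSG00000005483.10, chr8:83608193-83612653, plus strand) encodes the J-domain protein that hands clients to HSP70, and was highest in KO-labelled normal HSCs. It stood at 7.20, 7.30 and 7.42 log2 CPM there, against 6.83, 6.75 and 7.01 in WT-labelled normal libraries. In stressed HSCs it stood at 6.89 and 7.03 in the KO-labelled and 6.84 and 6.98 in the WT-labelled libraries. The KO-labelled normal libraries lay above the other 7, which overlapped. The difference in normal HSCs was 0.44, 1.36-fold (SE 0.092, 95% interval 0.24 to 0.64, limma adjusted p = 0.037), and between genotypes in stressed HSCs 0.05 (SE 0.11, limma adjusted p = 0.94). Its stress difference under the KO label, -0.34 (SE 0.10, limma adjusted p = 0.095), did not pass. The call in normal HSCs was lost without KO-labelled normal B or C, without WT-labelled normal A or B and without any stressed library, with differences from 0.39 to 0.51 over all 10 omissions (limma adjusted p from 0.042 to 0.16).

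Hspe1 and Hspd1 encode the HSP10 lid and the HSP60 barrel of the mitochondrial chaperonin and start next to each other on chromosome 1 (Hspe1, ENSMUSG00000073676.4, chr1:55088132-55091307, plus strand; Hspd1, ENSMUSG00000025980.14, chr1:55077835-55088243, minus strand). Hspe1 stood at 7.27, 7.07 and 7.08 log2 CPM in KO-labelled normal, 6.35, 6.50 and 6.56 in WT-labelled normal, 6.95 and 6.86 in KO-labelled stressed, and 6.74 and 6.46 in WT-labelled stressed libraries. Every KO-labelled library lay above every WT-labelled library. The difference was 0.67 in normal HSCs, 1.59-fold (SE 0.099, 95% interval 0.45 to 0.89, limma adjusted p = 0.005), and 0.31 in stressed HSCs (SE 0.12, limma adjusted p = 0.51), which did not pass. The call in normal HSCs held without any single library (difference 0.61 to 0.72, limma adjusted p from 0.0045 to 0.032). Hspd1 stood at 9.04, 8.96 and 8.89 log2 CPM in KO-labelled normal and 8.70, 8.90 and 8.79 in WT-labelled normal libraries, which overlapped. Its difference there was 0.17 (SE 0.059, limma adjusted p = 0.23). Under stress Hspd1 stood at 8.90 and 8.96 in the KO-labelled and 8.87 and 8.78 in the WT-labelled libraries, 0.10 apart (SE 0.072, limma adjusted p = 0.74). The annotated genes overlap at their starts, and whether reads were assigned by strand is not given in the sources used here. Of the windows of 50 bases in their transcripts, 22.8% (Hspe1) and 42.1% (Hspd1) occur in another gene. The part of shared sequence in these differences was not tested.

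Among normal HSCs the called members were thus Dnajb1 and Hspe1, 2 of 9, both higher in KO-labelled cells, where 1.56% of all genes tested were called (236 genes, 187 higher). All 9 differences were positive, with a median of 0.29 against -0.01 over all genes tested. In stressed HSCs 6 of 9 differences between genotypes were positive (median 0.10, all genes 0). With stress, 6 of 9 were positive in WT-labelled HSCs (median 0.03, all genes 0.01) and 3 of 9 in KO-labelled HSCs (median -0.09, all genes 0). Granulocyte marker genes moved with the normal contrast: 9 of 9 were in the table, with a summed level of 129 to 135 CPM in KO-labelled and 90.4 to 94.3 CPM in WT-labelled normal libraries, and Ltf was at 0 in the KO-labelled ones. Their part in the Dnajb1 and Hspe1 differences was not tested.

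**Figure D4:**
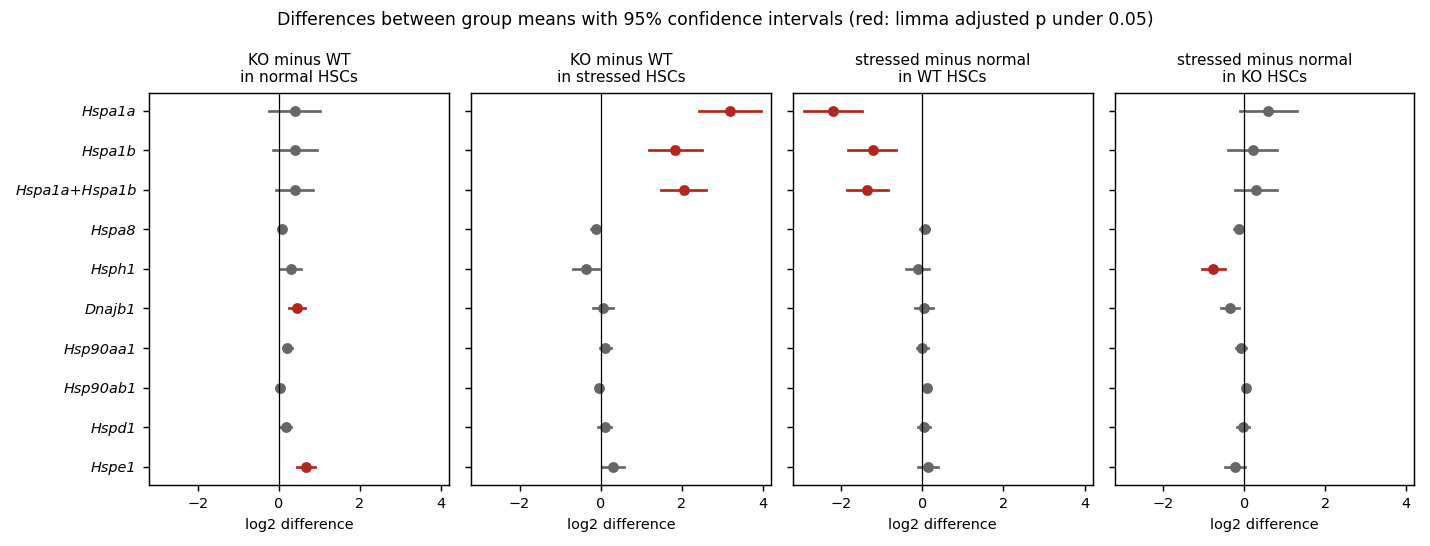
Log2 difference between group means of 9 chaperone genes and of Hspa1a and Hspa1b summed, with 95% confidence intervals, in 4 contrasts (KO and WT as labelled; red, limma adjusted p under 0.05). Hspa1a and Hspa1b lie far right between genotypes in stressed HSCs (3.19 and 1.84) and left with stress in WT-labelled HSCs (-2.21 and -1.23), and most others lie near 0.

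Hspa8 (ENSMUSG00000015656.17, chr9:40800984-40810087, plus strand) encodes the constitutive HSP70, which folds proteins in unstressed cells, and differed little between groups. It ranked between place 8 and 11 among all genes of a library. It stood at 11.15, 11.08 and 11.15 log2 CPM in KO-labelled normal, 11.08, 11.02 and 11.08 in WT-labelled normal, 11.08 and 10.90 in KO-labelled stressed, and 11.15 and 11.08 in WT-labelled stressed libraries. All 4 groups overlapped at 11.08. The largest of its 4 differences was -0.14 with stress in KO-labelled HSCs (SE 0.047, 95% interval -0.24 to -0.03, limma adjusted p = 0.15). Over the 4 contrasts its 95% intervals spanned -0.24 to 0.16. Values of such abundant genes take 1 of few steps, because the deposited values give genes of equal rank an equal value, so the spread may be understated.

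Hsp90aa1 (ENSMUSG00000021270.13, chr12:110690605-110702728, minus strand) encodes the inducible HSP90 and Hsp90ab1 (ENSMUSG00000023944.14, chr17:45567775-45573271, minus strand) the constitutive form. Hsp90aa1 stood at 9.97, 9.85 and 9.93 log2 CPM in KO-labelled normal and 9.65, 9.74 and 9.73 in WT-labelled normal libraries, which did not overlap. The difference of 0.21 (SE 0.052, limma adjusted p = 0.08) did not pass. Under stress the values were 9.89 and 9.78 in the KO-labelled and 9.62 and 9.79 in the WT-labelled libraries, which overlapped and differed by 0.12 (SE 0.064, limma adjusted p = 0.62). Hsp90ab1 stood at 10.75, 10.71 and 10.71 in KO-labelled normal, 10.71, 10.68 and 10.68 in WT-labelled normal, 10.75 and 10.81 in KO-labelled stressed, and 10.81 in both WT-labelled stressed libraries. Its stress difference in WT-labelled HSCs was 0.12 (SE 0.029, limma adjusted p = 0.051), which missed the threshold although the groups did not overlap. It passed without KO-labelled normal library A (limma adjusted p = 0.03) or B (adjusted p = 0.049), which are not in this contrast but share its estimate of the spread, and with library weights (adjusted p = 0.038) or median centring (adjusted p = 0.049). Both WT-labelled stressed libraries hold Hsp90ab1 at rank 12 and hence at 1 value.

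Hspb1 (ENSMUSG00000004951.10, chr5:135887919-135889563, plus strand) encodes a small heat shock protein that holds unfolded clients without ATP, and was near the limit of detection. It had about 31, 17 and 15 reads in KO-labelled normal, 8, 17 and 1 in WT-labelled normal, 0 and 13 in KO-labelled stressed, and 23 and 6 in WT-labelled stressed libraries. In CPM all 4 groups overlapped, and no test was made. A count of 0 in KO-labelled stressed library A allows up to 0.101 CPM (3 reads, counting error only). Much of its transcript is shared with copies, since 50.1% of its windows of 50 bases occur in another gene.

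Counting separation alone, the libraries of the 2 groups did not overlap for 5 of 9 members between genotypes in stressed HSCs (39.1% of all genes tested) and for 4 in normal HSCs (19.5%). With stress they did not overlap for 3 of 9 in WT-labelled HSCs (36.4%) and for 4 in KO-labelled HSCs (33.1%). In stressed HSCs the 5 were Hspa1a, Hspa1b, Hsph1, Hspd1 and Hspe1, of which Hsph1 was lower in KO-labelled cells (-0.36, SE 0.14, limma adjusted p = 0.50).

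The regulators of the pathway did not pass. Of 6 listed heat shock factors and regulators 3 were tested and none was called in any contrast. Hsf1, the master regulator of the response, had means of 6.76 (KO) and 6.91 (WT) log2 CPM in normal and 6.87 and 6.85 in stressed cells. Among the 4 pairwise contrasts, Hsf2 had its largest difference with stress in WT-labelled HSCs (-0.74, SE 0.29, limma adjusted p = 0.22), and Hsbp1, a small protein that binds HSF1, between genotypes in normal HSCs (0.28, SE 0.077, adjusted p = 0.11). A transcript level does not report the activity of HSF1, which is set largely after translation.

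Among partners of HSP70, 1 of 8 other HSP70 and HSP110 forms was called, Hspa2, which fell by 0.93 with stress in KO-labelled HSCs (limma SE 0.21, adjusted p = 0.032), where 4.50% of all genes tested were called. Of 14 other J-domain cochaperones, 3 were called and all fell with stress. In KO-labelled HSCs these were Dnaja1 (-0.42, SE 0.072, limma adjusted p = 0.0072) and Dnajb2 (-0.88, SE 0.18, adjusted p = 0.019), with a list median of -0.08, so 2 of 14 were called against 4.50% of all genes. In WT-labelled HSCs it was Dnaja4 (-0.92, SE 0.22, limma adjusted p = 0.049), with a median of 0.04, so 1 of 14 was called against 3.30% of all genes. None of 7 nucleotide exchange factors was called in any contrast. The smallest p among them were those of Bag1 (0.21 with stress in WT-labelled HSCs, limma adjusted p = 0.15), Bag5 (0.26 between genotypes in normal HSCs, adjusted p = 0.34) and Bag6 (-0.20 in the same contrast, adjusted p = 0.34).

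Among 18 HSP90 cochaperones 1 was called in each stress contrast, a share near that of all genes (3.30% with the WT label and 4.50% with the KO label). Fkbp4, an immunophilin that binds HSP90 in steroid receptor complexes, fell with stress in both genotypes, by 0.26 with the WT label (SE 0.056, limma adjusted p = 0.028) and by 0.37 with the KO label (SE 0.056, adjusted p = 0.0033), with an interaction of -0.11 (adjusted p = 0.70). Between genotypes in normal HSCs 16 of 18 differences were positive, with a median of 0.13, and none was called. The cytosolic chaperonin TRiC and its partner prefoldin fold actin and tubulin. All 14 of their genes had a difference of 0 or more between genotypes in both conditions (median 0.12 in normal and 0.07 in stressed HSCs), and none was called. The nearest to the threshold in normal HSCs were Pfdn5 (0.56, SE 0.12, limma adjusted p = 0.051), Pfdn1 (0.46, SE 0.11, adjusted p = 0.082) and Cct4 (0.23, SE 0.063, adjusted p = 0.11).

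In the remaining lists of chaperones no gene was called in any contrast. Of 13 mitochondrial chaperones and proteases, 10 had positive differences between genotypes in normal HSCs (median 0.10), against the 0.67 of Hspe1. Hspa9, the mitochondrial HSP70, differed by 0.17 between genotypes in stressed HSCs (SE 0.051, limma adjusted p = 0.32), Dnajc19 by 0.34 in normal HSCs (SE 0.11, adjusted p = 0.17) and Hscb by 0.36 in the same contrast (SE 0.13, adjusted p = 0.22). Of 17 chaperones of the endoplasmic reticulum, 13 had positive differences in normal HSCs (median 0.13), with Manf at 0.37 (SE 0.086, limma adjusted p = 0.063) and Sdf2l1 at 0.41 (SE 0.11, adjusted p = 0.11), and Hspa5, the HSP70 of this compartment, at 0.18 in stressed HSCs (SE 0.044, adjusted p = 0.26). Of 9 further small heat shock proteins and their partners 5 were tested, with Hspb8 at -1.40 with stress in KO-labelled HSCs (limma SE 0.41, adjusted p = 0.091) and -1.38 in WT-labelled HSCs (adjusted p = 0.11), Hspbap1 at 1.11 in KO-labelled HSCs (SE 0.36, adjusted p = 0.12) and Hspb11 at 0.60 between genotypes in normal HSCs (SE 0.20, adjusted p = 0.19).

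Other genes known to be induced by heat or oxidants moved in both directions. Of 6 tested, Serpinh1, the collagen chaperone HSP47, fell by 1.70 with stress in KO-labelled HSCs (limma SE 0.30, adjusted p = 0.0079), and Hmox1, heme oxygenase, rose by 0.82 (SE 0.19, adjusted p = 0.038), 2 of 6 called against 4.50% of all genes. All 6 differences between genotypes in stressed HSCs were negative (median -0.31), none called, while Hspa1a and Hspa1b were higher there. Immediate early genes encode transcription factors and other proteins made rapidly after a signal, and 15 of 19 listed were tested. With stress in WT-labelled HSCs, Fos fell by 1.58 (SE 0.22, limma adjusted p = 0.0032), Egr1 by 1.40 (SE 0.14, adjusted p = 0.00034) and Junb by 0.59 (SE 0.12, adjusted p = 0.025). In KO-labelled HSCs, Egr1 fell by 0.64 (adjusted p = 0.024) and Junb by 0.50 (adjusted p = 0.044), while Fos rose by 0.90 (adjusted p = 0.045) and Jun by 1.03 (adjusted p = 0.00091), all from limma. These are 3 of 15 called with the WT label and 4 of 15 with the KO label, against 3.30% and 4.50% of all genes. Between genotypes in normal HSCs 14 of 15 differences were negative (median -0.29), the opposite sign to the 9 chaperone members, and Fos alone was called (-1.77, SE 0.20, limma adjusted p = 0.0013), where 1.56% of all genes were. The Fos interaction was 2.49 (SE 0.32, limma adjusted p = 0.036). Fos fell with stress in WT-labelled HSCs as Hspa1a did, and the summed level of the 18 immediate early genes in the table was 743 to 748 CPM in WT-labelled normal and 625 to 714 CPM in WT-labelled stressed libraries, where Egr3 was at 0. The sums were 605 to 634 CPM (normal) and 724 to 731 CPM (stressed) under the KO label. Their part in the Hspa1a difference was not tested.

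The 5 genes, predicted genes left out, whose log2 values over the 10 libraries lay nearest to those of Hspa1a and Hspa1b summed were Jag1 (mean absolute distance 0.20 after centring), Epb41l1 (0.23), Mcts2 (0.23), Snx7 (0.23) and Kcnk3 (0.27). They were chosen for this likeness, so their levels are a description. Jag1, a Notch ligand, had means of 2.43 (KO) and 2.27 (WT) log2 CPM in normal and 2.57 and 1.13 in stressed cells. Epb41l1, which encodes a protein of the membrane skeleton, had means of 4.49, 3.54, 4.61 and 2.74 in the same order. Each of the 5 was lowest in WT-labelled stressed HSCs. None is a chaperone gene. Jag1, Epb41l1 and Mcts2 lie on chromosome 2, as Id1 does (chr2:152736251-152737410), with Mcts2 at chr2:152687035-152687946, Epb41l1 at chr2:156420909-156543214 and Jag1 at chr2:137081456-137116644. The share of all genes tested that lie on chromosome 2 was not counted, and what this position shares with the likeness was not tested.

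**Figure D5:**
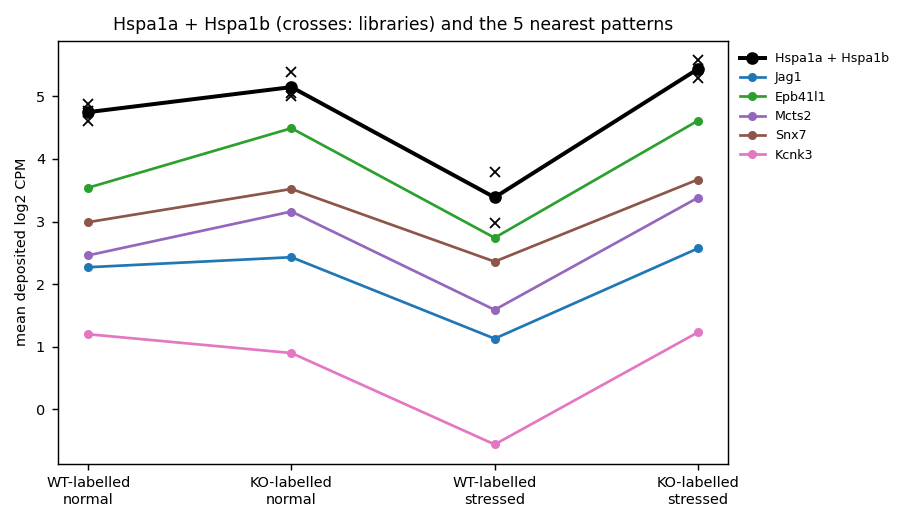
Mean deposited log2 CPM in the 4 groups for Hspa1a and Hspa1b summed (black, crosses are the libraries) and for the 5 genes with the nearest pattern; lines join group means only to guide the eye. All 6 lines dip in the WT-labelled stressed group, to 3.38 for the sum and 1.13 for Jag1.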

How the data were processed

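RNA sequencing gave transcript levels for 10 libraries, grouped by the genotype and treatment labels. Reads were aligned with Bowtie2 to mm10 and counted with featureCounts, per the submitters' processing notes. The deposited values are log2 CPM, and the file name gives limma voom as their origin. Across libraries the medians differ by at most 0.004, the upper quartiles by 0.001 and the lower quartiles by 0.106, and the values therefore look quantile normalized. Treatment of reads with several matches and of strand is not given in the sources used here. Depth per library, 25700000 to 33000000 reads, was estimated from the steps between tied low values, from 10 to 100 reads, so 3 reads correspond to 0.0909 to 0.117 CPM.

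Genes above 0 log2 CPM in at least 2 libraries were kept. All 10 libraries entered 1 linear model with 4 group means in limma 3.58.1 (R 4.3.3), variances moderated along the mean level, with Benjamini-Hochberg adjustment over the 15143 genes and calls at an adjusted p under 0.05. Differences are on the log2 scale with limma's SE. The fit was tested on simulated data. Coordinates and lengths come from GENCODE vM21 (mm10), in which 20199 of the 20270 identifiers were found, counted from 1. Transcripts were searched for shared windows of 50 bases, and promoter windows come from RefSeq (GRCm38.p6). Protein sequences were not used here.

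The members and the lists of other genes were chosen with earlier results of these data known. Named are all 10 members, Id1, from each other list the called genes or otherwise up to 3 with the smallest p, and the 5 genes nearest in pattern to Hspa1a and Hspa1b summed. Genes named as cell markers, Igkc, Ltf, Car1 and Epor, were picked after their values were seen. Alternatives covered moderation, filter, pseudocount, scaling (median centring, and a trimmed mean of M values, TMM, computed on the CPM), library weights, gene length, a replicate block, threshold, the libraries fitted, the copies summed, and each library left out. Plots were drawn with matplotlib 3.10.9 in Python 3.11.15.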

Additional observations from a re-analysis of the deposited data

Results flagged for a closer look

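Hspa1a libraries separated in opposite directions with stress in the 2 genotypes. Both WT-labelled stressed libraries (0.970 and 1.18 CPM) lay below all 3 WT-labelled normal libraries (3.86 to 5.77 CPM), and both KO-labelled stressed libraries (10.3 and 9.29 CPM) lay above all 3 KO-labelled normal libraries (5.23 to 7.93 CPM). Such separation alone is common, since stressed and normal libraries did not overlap for 36.4% (WT label) and 33.1% (KO label) of all genes tested. The Hspa1a change was -2.21 (limma adjusted p = 0.0037) under the WT label and 0.59 (adjusted p = 0.37, not called) under the KO label. The interaction, 2.80 on the log2 scale, did not pass limma's test after adjustment (adjusted p = 0.075, and from 0.062 to 0.23 over the alternatives). No group holds more than 3 libraries, so single libraries were not tested against their group.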

How the results depend on the processing

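Of 1016 recomputed differences of the 9 tested members (45 pairs of gene and contrast, up to 23 alternatives each), 954 kept direction and side of the threshold, 38 were no longer called, 9 became called and 15 changed sign. Members called between genotypes in stressed HSCs numbered 2, and 1 without the mean trend, with robust moderation, without a filter, with the copies summed and tested as 1 gene, and with the replicate block, 0 with only the 4 libraries of the contrast, and 1 to 2 leaving out single libraries. In normal HSCs they numbered 2, and 0 without the trend, 1 without a filter, 1 with only the libraries of the contrast, 1 with a length trend removed, 3 at an adjusted p under 0.1 (with Hsp90aa1), and 1 to 2 leaving out single libraries. With stress in WT-labelled HSCs they numbered 2, and 1 without the trend, without a filter, with the replicate block, with only the libraries of the contrast and with the copies summed, 3 at an adjusted p under 0.1 (with Hsp90ab1), and 1 to 3 leaving out single libraries. With stress in KO-labelled HSCs the number was 1, and 0 without the trend, 2 at an adjusted p under 0.1 (Hsph1 and Dnajb1), and 1 in each omission. In the interaction it was 0, and 1 (Hspa1a) at an adjusted p under 0.1; with only the libraries of a contrast it has no value. The labels do not say whether libraries of the same letter, A to C, belong together. Deviations from group means correlated at -0.02 to 0.04 in 13 same-letter pairs and at -0.04 to 0.04 in 24 other pairs. With 2 or 3 libraries per group, these values cannot show whether a letter marks a shared origin. Under the replicate block Hspa1b lost both calls (limma adjusted p = 0.19 and 0.087). The Hspe1 call was lost without the trend (0.67, adjusted p = 0.066), and the Hspa1a fall in WT-labelled HSCs was called in all 22 alternatives (-2.39 to -1.52). Hsp90ab1 with stress in WT-labelled HSCs became called in 5 of 23 alternatives. Changes of sign were at values near 0. Between genotypes in stressed HSCs, Dnajb1 was -0.02 without KO-labelled stressed B or WT-labelled stressed A (-0.02 to 0.13 over the omissions), and Hsp90ab1 0 without KO-labelled stressed A (-0.06 to 0). With stress in WT-labelled HSCs, Hsp90aa1 was -0.01 with TMM, 0 with library weights, 0 with a length trend removed, -0.03 without WT-labelled normal A and -0.08 without WT-labelled stressed B (-0.08 to 0.09 over the omissions). Hspd1 was -0.02 with a length trend removed and -0.02 without WT-labelled normal A or stressed A (-0.02 to 0.08), Dnajb1 -0.01 without WT-labelled normal B and -0.02 without stressed B (-0.02 to 0.11), and Hspe1 -0.01 without stressed A (-0.01 to 0.27). With stress in KO-labelled HSCs, Hspd1 was 0 without KO-labelled normal A (-0.07 to 0). Over all genes, counts called ranged from 0 to 54 (22 as reported), 45 to 400 (236), 253 to 872 (500), 249 to 1067 (682) and 1 to 26 (3) in the order of contrasts above. Apart from settings that fit fewer libraries, the cause was not tested. Where 1 library is left in a group, it is assumed to vary like the others. Depth limits Hspb1 and, in WT-labelled stressed HSCs, Hspa1a.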

Other observations

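Processed copies of the chaperone genes were measured far below the genes they derive from. Gm12346, which shares 41.8% of the 50-base windows of Hsp90aa1, lay between 1.83 and 2.59 log2 CPM, against 9.62 to 9.97 for Hsp90aa1 itself. Hspd1-ps3 lay between 1.25 and 2.18, against 8.70 to 9.04 for Hspd1. Gm8355, a copy of Hspa8, lay between 0.11 and 1.38, against 10.90 to 11.15 for Hspa8. Next to Hspa1a and Hspa1b, the third HSP70 gene of the cluster, Hspa1l, which is known from the testis, lay between -5.59 and 0.29, and the antisense gene Gm10501 between -0.34 and 0.92.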
